A study of Homo sapiens with 12 samples.

Results

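The comparison concerned what the PPARγ antagonist T0070907 did to the transcriptome of A375 cells that were already receiving the agonist rosiglitazone (RGZ). A375 is a line established from a human metastatic melanoma. Of the 12 RNA-seq libraries of the series, 6 entered the comparison directly, 3 from cells given 5 μM RGZ together with 2 μM T0070907 for 24 h (the combination) and 3 from cells given 5 μM RGZ alone for 24 h, so both groups carried the same dose of agonist in DMSO vehicle. The members were taken from the sample labels, and the libraries were paired by experiment, since each of 3 independent experiments supplied 1 library per condition. Technical replicates of each experiment had been combined before sequencing, and all libraries came from this 1 line. The 3 vehicle libraries and the 3 libraries with 2 μM T0070907 alone were used for the estimate of spread and as reference levels.

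PPARγ is a nuclear receptor that sits on DNA as a heterodimer with a retinoid X receptor. With an agonist such as RGZ in its pocket it recruits coactivators to genes of fatty acid uptake, storage and oxidation, and it is best known for its role in fat cells. T0070907 occupies the same pocket and favours the binding of corepressors. A gene that RGZ acts on through the receptor is therefore examined by asking whether the antagonist shifts its mRNA at an unchanged dose of RGZ.

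The deposited values were whole read counts per NCBI gene number. The total count was between 9001174 and 10096418 in the RGZ libraries and between 8426908 and 9471903 in the combination libraries, and 3 counts, the floor taken for detection, corresponded to between 0.305 and 0.371 CPM (counts scaled to the library total with edgeR's TMM factors). Markers fixed for the melanocyte lineage summed to between 239 and 457 CPM in the RGZ libraries and between 299 and 526 CPM in the combination libraries, carried by *SOX10*, *MITF*, *S100A1* and *S100B*, whereas the pigment genes *TYR*, *DCT*, *MLANA* and *TYRP1* had at most 13 counts in any library, and *TYR* had 0 in all 12. Markers of fat cells summed to at most 3.88 CPM in any of the 6 libraries, with *ADIPOQ* at 0. Summed markers of fibroblasts lay between 16.1 and 44.3 CPM, of immune cells between 49.2 and 104 CPM and of keratinocytes between 85.8 and 119 CPM over the 6 libraries. Of these, *KRT14*, of keratinocytes, was called higher (log2 fold change 1.10) and *CD68*, of immune cells, lower (-0.39), and their part in the results was not tested. In such bulk RNA, fewer cells of a kind and less RNA per cell cannot be told apart. One library stood apart in a few structural RNAs. In the combination library of experiment 3, the ribosomal RNA precursor *RNA45SN5* had 33515 counts, against 2392 to 3532 in the other 5 libraries, and *RMRP* and *RPPH1*, the RNAs of RNase MRP and RNase P, had 187 and 112 counts, against at most 14 and 9. These were the only 3 genes more than 2-fold above every other library of the series there (0.5 CPM added to each value). In the RGZ library of experiment 2, 24 genes stood more than 2-fold above every other library, and 21 of them were called lower with the combination.

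Adding T0070907 to RGZ lowered 795 genes and raised 750 of the 13522 genes tested, which is 11.4% of them (5.88% lower and 5.55% higher; edgeR's quasi-likelihood test, experiment as a block, adjusted p under 0.05). Most changes were small. The median decrease was 1.35-fold and the median increase 1.36-fold, and 118 genes were lower and 99 higher by at least 2-fold, while 22 and 12 passed 4-fold. The genes that fell were the more abundant, with a median level of 50.9 CPM against 24.4 CPM for those that rose and 29.1 CPM for all tested genes. Of the called genes, 787 of the 795 were lower and 742 of the 750 higher within each of the 3 experiments. The calls came from a fit to these same experiments, with the experiment as a block, so such agreement was favoured in advance. Without the experiment as a block, 167 genes (1.24%) were called, 125 lower (0.924%) and 42 higher (0.311%), so that 74.9% of the calls were decreases, against 51.5% with the block. All 167 were among the genes called with the block, in the same direction. The increases of *RMRP* and *RPPH1* rested on the combination library of experiment 3. They had log2 fold changes of 3.20 and 3.09, and adjusted p-values of 0.925 and 0.857 without that library. Their log2 fold changes without it were 0.18 and -0.33. Both calls were also lost without the RGZ library of experiment 3 (log2 fold changes 1.88 and 1.45, adjusted p = 0.392 and 0.531), and that of *RPPH1* without the RGZ library of experiment 2 (adjusted p = 0.0624). When the combination library of experiment 3 was left out, 1118 genes were called, and 1020 when the RGZ library of experiment 2 was left out. The fit was also repeated without each of the 6 libraries and without each of the 3 experiments. Of the 205 called genes named here, 114 kept their call in all 9 of these fits, and 50 were called without the block. Of the 38 gene lists with a called member, 22 had one called without the block. The lists were chosen with earlier results of these data known, which can raise their called shares, and the shares were not tested. Where a gene lost its call in 5 or more of the 9 fits (31 genes), the number is given beside it. The other 60 genes lost theirs in 1 to 4 fits. Of these, 10 lost it without the RGZ library of experiment 2, namely *RPPH1* and *IL18R1*, whose values are given beside them, and *CEBPB* (adjusted p = 0.149), *HADHA* (0.11), *APOC1* (0.0948), *LAMA1* (0.0933), *ERBB2* (0.0861), *PEX19* (0.0574), *FGF2* (0.0565) and *PLXNB1* (0.054). Without the combination library of experiment 3, 7 lost it, namely *RMRP*, *RPPH1*, *APOC1* (adjusted p = 0.147), *PLXNB1* (0.0943), *S100A1* (0.0698), *MMP8* (0.0683) and *PPARGC1B* (0.0587).

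**Figure D1:**
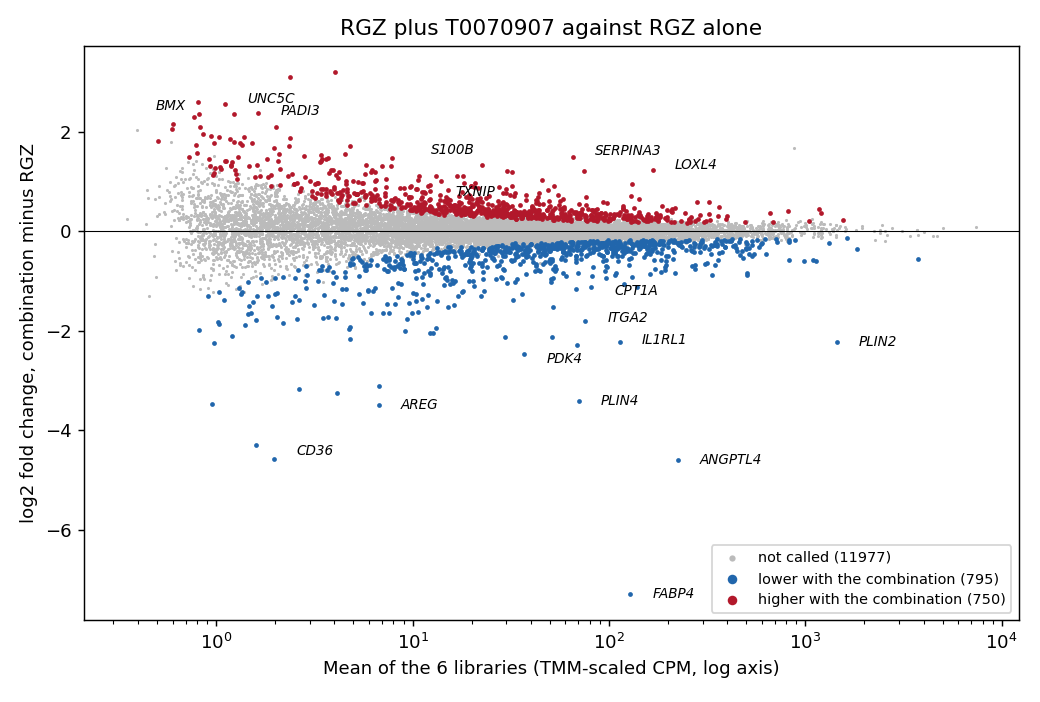
Each point is 1 of the 13522 tested genes, with its mean TMM-scaled CPM over the 6 libraries on a log axis and its log2 fold change (combination minus RGZ) on the other. Blue points are the 795 genes called lower and red points the 750 called higher; the decreases reach a log2 fold change of -7.29 at *FABP4*, whereas no labelled increase exceeds 2.55, at *UNC5C*.

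The 3 largest decreases described here were in genes of fatty acid handling. *FABP4* encodes the fatty acid-binding protein of fat cells, a small carrier of fatty acids in the cytosol. Its level in experiments 1, 2 and 3 was 197, 401 and 167 CPM with RGZ and 1.11, 0.947 and 2.68 CPM with the combination. Every combination library was far below every RGZ library, and the RGZ library of experiment 2 was the highest. *FABP4* fell 157-fold, with a log2 fold change of -7.29 ± 0.20 (adjusted p = 6.88e-14), where ± marks the standard error of a log2 fold change, and the log2 fold change lay between -8.20 (without the combination library of experiment 3) and -6.53 (without that of experiment 2) when a library or experiment was left out. It was -6.63 without the RGZ library of experiment 2 and -7.99 without that of experiment 3. *ANGPTL4* encodes a secreted inhibitor of lipoprotein lipase. It went from 384, 451 and 449 CPM to 5.68, 10.8 and 41.6 CPM, so that the combination library of experiment 3 kept a higher level than the other 2, still far under any RGZ library. Its log2 fold change was -4.60 ± 0.26 (adjusted p = 3.62e-09), and -5.61 without that combination library, -5.40 without the RGZ library of experiment 3 and -5.66 without that experiment. The mean level was 5.67 ± 2.5 CPM with vehicle and 0.628 ± 0.298 CPM with T0070907 alone (SD, n = 3 each).

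*CD36* was nearly silent with the combination. It encodes a fatty acid translocase of the plasma membrane, and its counts in experiments 1, 2 and 3 were 28, 36 and 43 with RGZ and 0, 1 and 3 with the combination. Every combination library was lower, and the summed counts gave a ratio of RGZ to combination of 25.5 (95% exact interval 9.69 to 95.4, counting error only). The adjusted p was 1.02e-05, and 0.0088 without the block. The log2 fold change of *CD36* was -4.57, and -5.67 without the combination library of experiment 3.

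The proteins that coat lipid droplets followed. *PLIN2*, the perilipin found on droplets of most cell types, had 2097, 2547 and 2477 CPM with RGZ in experiments 1, 2 and 3 and 362, 454 and 737 CPM with the combination. The groups were well separated, with experiment 3 the highest of the combination libraries. *PLIN2* fell 4.69-fold (log2 fold change -2.23 ± 0.13, adjusted p = 3.62e-09), to a mean of 518 ± 196 CPM. The means were 386 ± 19.9 CPM with vehicle and 176 ± 3.73 CPM with T0070907 alone (SD, n = 3 each). Between combination and vehicle *PLIN2* was not called (adjusted p = 0.114, same fit), and the combination library of experiment 1 lay below every vehicle library. *PLIN4*, another perilipin, had 104, 191 and 90.5 CPM with RGZ and 5.56, 13.6 and 16.3 CPM with the combination, a log2 fold change of -3.40 ± 0.18 (adjusted p = 2.25e-09). Its span overlaps that of *HDGFL2*, and whether reads were counted by strand is not given in the sources used here. The same limit holds for other named genes that overlap a gene with more counts summed over the 6 libraries. Among them are *DDIT3* (1407, *MARS1* 25839), *TRAF1* (427, *PHF19* 10985), *S100A1* (1342, *S100A13* 12294), *ACSL5* (404, *ZDHHC6* 3356), *ETFDH* (1096, *PPID* 4520), *ESRRA* (4352, *TRMT112* 20175) and *LPCAT3* (6011, *EMG1* 9564). The monoglyceride lipase gene *MGLL* fell to a lesser extent (log2 fold change -0.41, adjusted p = 0.0289, lost in 5 of the 9 fits). These 3 were the genes that changed among 13 tested members of the list of lipid droplet proteins and lipases (23.1% called, against 11.4% of all tested genes, of which 5.88% lower, and 2 without the block), whose median log2 fold change was -0.02 against 0.01 for all tested genes.

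**Figure D2:**
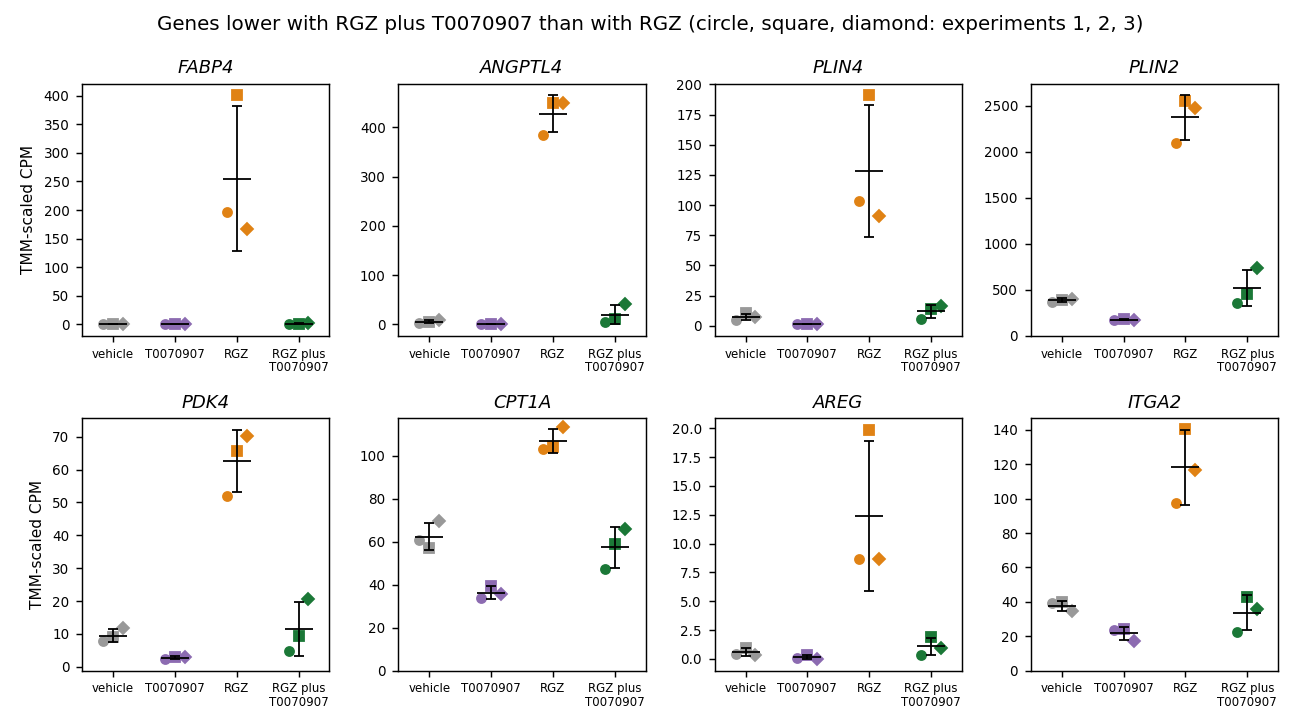
TMM-scaled CPM of 8 genes in all 12 libraries, by condition, on linear axes; circles, squares and diamonds are experiments 1, 2 and 3, and the bar with caps is the mean ± SD (n = 3). In each panel the 3 combination libraries lie below the 3 RGZ libraries, and for *ANGPTL4*, *PLIN2* and *PDK4* the combination library of experiment 3 is the highest of its group.

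Among genes of fatty acid entry, 2 of 13 tested members were lower (*FABP4* and *CD36*) and 2 higher (30.8% called, against 11.4% of all tested genes). The fatty acid transporter gene *SLC27A1* rose (log2 fold change 0.57, adjusted p = 0.00254). *FABP7*, the brain-type fatty acid-binding protein gene, rose from 1.73 ± 1.06 to 5.08 ± 1.98 CPM (SD, n = 3 each), a log2 fold change of 1.53 ± 0.27 (adjusted p = 9.06e-04). The 2 binding-protein genes thus moved in opposite directions in the fit with the block. Without the block 2 genes of this list were called lower and 0 higher, with adjusted p = 0.233 for *FABP7* and 0.207 for *SLC27A1*. In the lipoprotein lipase system, 2 of 5 tested members were lower (40% called, against 11.4% of all tested genes, and 1 without the block). They were *ANGPTL4* and the lipase gene *LPL* itself (log2 fold change -0.83, adjusted p = 0.00338). Acyl-CoA synthetases activate fatty acids for all later steps, and 3 of the 15 tested synthetases and thioesterases fell while 2 rose (33.3% called, and 2 and 0 without the block). *ACSL5* fell by 1.47, *ACSL3* fell by 0.76 and *ACSL4* fell by 0.49 on the log2 scale (adjusted p = 2.09e-05, 3.05e-07 and 2.23e-04). The acetyl-CoA synthetase gene *ACSS1* and *ACSF2* rose by 0.47 and 0.57 on the log2 scale. In *ACSL5* the RGZ library of experiment 2 was the highest (6.55, 21.9 and 4.36 CPM with RGZ, 3.09, 7.05 and 1.5 CPM with the combination), and the log2 fold change was -1.28 without it.

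Messenger RNAs for several steps of mitochondrial fatty acid oxidation fell. Of 23 tested genes of the carnitine shuttle and mitochondrial beta-oxidation, 8 were lower and 0 higher (34.8% called, against 11.4% of all tested genes, of which 5.88% lower), 15 were not called, and 5 of the decreases also passed without the block, while the list's median log2 fold change was -0.04. *CPT1A*, the outer-membrane carnitine palmitoyltransferase that controls entry of fatty acids, had 103, 104 and 113 CPM with RGZ and 47.2, 59 and 65.9 CPM with the combination in experiments 1, 2 and 3. The groups did not overlap, and the ratio within the experiments was 0.458, 0.567 and 0.582. *SLC25A20*, which carries acylcarnitines across the inner membrane, fell by 0.80 on the log2 scale (adjusted p = 1.88e-06). *ACAA2*, the thiolase of the last step, went from 66 ± 7.97 to 40.3 ± 3.8 CPM, with a log2 fold change of -0.71 ± 0.08 (adjusted p = 1.26e-05). *ETFA* and *ETFDH*, which pass electrons of beta-oxidation to the respiratory chain, had log2 fold changes of -0.64 and -0.33 (adjusted p = 8.45e-07 and 0.047). The log2 fold change was -0.45 for *ACADVL*, the dehydrogenase of very long chains, -0.42 for the carnitine transporter gene *SLC22A5* and -0.22 for *HADHA* of the trifunctional protein (adjusted p = 5.70e-05, 0.0405 and 0.0144). The call of *ETFDH* was lost without the block (adjusted p = 0.237) and in all 9 fits that left out a library or experiment (adjusted p between 0.0527 and 0.291), and that of *SLC22A5* in 7 of them. In peroxisomes, 3 of 20 tested members were lower and 1 higher (20% called, against 11.4% of all tested genes, and 1 and 0 without the block). *ECH1*, an auxiliary enzyme for unsaturated fatty acids, had the largest decrease, from 240.1 ± 32.7 to 145 ± 20.7 CPM (log2 fold change -0.72 ± 0.07, adjusted p = 1.78e-06), followed by *PEX19* (-0.28) and *HSD17B4* (-0.24).

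At the branch point of pyruvate, *PDK4*, a kinase that switches off pyruvate dehydrogenase, had 52.1, 65.8 and 70.1 CPM with RGZ and 4.69, 9.26 and 20.5 CPM with the combination. The combination library of experiment 3 kept the highest level of its group, and its ratio to RGZ was the largest of the 3 experiments (0.0901, 0.141 and 0.292). *PDK4* fell 5.57-fold (log2 fold change -2.48 ± 0.18, adjusted p = 6.07e-08, and -3.07 without experiment 3). The related kinase gene *PDK1* fell by 0.80 and the pyruvate carboxylase gene *PC* fell by 0.26, whereas *PDP1*, the phosphatase that opposes the kinases, rose by 0.56 on the log2 scale (adjusted p = 2.78e-05, 0.0424 and 1.25e-04). The call of *PC* was lost in 8 of the 9 fits. The other 11 of 15 tested members were not called (26.7% called, and 2 lower and 1 higher without the block). The list of ketone body metabolism held 1 decrease and 2 increases among 8 tested members (37.5% called, against 11.4% of all tested genes, and none without the block), with *BDH1* at a log2 fold change of 0.63.

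In triglyceride synthesis, 3 of 13 tested genes were lower and 0 higher (23.1% called, against 11.4% of all tested genes), namely *GPAT3* (log2 fold change -0.47), *LPIN2* (-0.40) and *AGPAT2* (-0.36). *LPCAT3*, which inserts polyunsaturated acyl chains into phospholipids, had the largest change of the 12 tested phospholipid remodelling genes, with 132, 145 and 139 CPM in the RGZ and 69.4, 77.4 and 86.6 CPM in the combination libraries and a log2 fold change of -0.83 ± 0.06 (adjusted p = 1.90e-07). *LPCAT2* and *MBOAT7* rose, by 0.61 and 0.27 on the log2 scale, and 25% of the phospholipid list was called, against 11.4% of all tested genes. The aquaglyceroporin gene *AQP3* fell from 19.2 ± 4.75 to 7.27 ± 2.64 CPM (log2 fold change -1.40, adjusted p = 1.34e-06). It was the single call among 6 tested genes of glycerol transport and metabolism (16.7%, against 11.4% of all tested genes). The sterol receptor gene *NR1H3*, which encodes LXRα, fell by 0.81 on the log2 scale, and so did the cholesterol exporter *ABCA1* (-0.77), the apolipoprotein gene *APOC1* (-0.61) and *NPC2* (-0.30), while *SREBF1* rose by 0.37 among 11 tested genes of that list (45.5% called). In the sterol list 17.4% were called (1 gene without the block), and 2 of 23 tested genes were lower and 2 higher (*IDI1*, log2 fold change 0.25, and *MVD*, 0.48). In the fatty acid list 25% were called, and 2 of 16 were lower (*ELOVL6*, log2 fold change -0.34, and *ELOVL1*, -0.29) and 2 higher (*FADS2*, 0.29, and *FADS3*, 0.43). None of the called triglyceride, LXR and fatty acid synthesis genes passed without the block, and of the 9 fits *AGPAT2*, *IDI1* and *FADS2* lost their call in 6, 7 and 7.

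PPARγ and its partners bind a direct repeat of AGGTCA with 1 base between the copies, so the 250 bases before the start site were searched on both strands for AGGTCA, any base and AGGTCA with at most 2 mismatches among its 12 fixed letters. RefSeq promoters (GRCh38.p14) were matched for 10758 of the tested genes. The motif was found before 11 of 634 genes called lower (1.74%), 11 of 592 called higher (1.86%) and 185 of all 10758 (1.72%), and in 2.56% of all 27305 promoters of the RefSeq table. Among genes lowered by at least 2-fold it was found before 3 of 89 (3.37%), and among genes raised by at least 2-fold before 2 of 68 (2.94%). With at most 1 mismatch it was found before 2 of the 89 genes (2.25%), 0 of the 68 and 30 of all tested genes (0.279%). These shares rest on few matches and were not tested. A match describes letters only, and sites farther from the start were not searched. The matches shown lie before genes with a place in the results, *CREB3L3* and *ACAA2* among the decreases and *FGF1* among the increases; capitals mark the motif as it reads on the strand of the gene.
CREB3L3 (GRCh38.p14 chr19:4153394-4153436, plus strand, 1 mismatch): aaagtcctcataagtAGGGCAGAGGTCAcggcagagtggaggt
ACAA2 (GRCh38.p14 chr18:49813582-49813624, minus strand, 2 mismatches): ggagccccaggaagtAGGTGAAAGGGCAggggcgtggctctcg
FGF1 (GRCh38.p14 chr5:142698108-142698150, minus strand, 2 mismatches): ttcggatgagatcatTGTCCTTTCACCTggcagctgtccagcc

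Genes of secreted signals, of an enzyme that makes one and of a receptor were also among the 15 largest decreases. *AREG* encodes amphiregulin, a ligand of the EGF receptor, and had 8.63, 19.9 and 8.63 CPM with RGZ and 0.371, 1.89 and 0.964 CPM with the combination. Every combination library was lower, and the RGZ library of experiment 2 was the highest. The log2 fold change was -3.50 ± 0.22 (adjusted p = 1.47e-08), and -3.65 without that RGZ library. Among 10 tested members of the EGF family and its receptors, *HBEGF* also fell (log2 fold change -0.38, adjusted p = 0.0158, lost in 5 of the 9 fits), while the receptor genes *ERBB3* and *ERBB2* rose by 0.50 and 0.26 (adjusted p = 3.45e-04 and 0.0125). These 2 decreases and 2 increases were 40.0% of the list, against 11.4% of all tested genes, and *AREG* alone was called without the block. *CSF2*, the gene of the growth factor GM-CSF, fell from 7.5 ± 1.61 to 0.778 ± 0.0685 CPM (SD, n = 3 each), with a log2 fold change of -3.25 ± 0.30 (adjusted p = 1.34e-06). *PTGES*, which makes prostaglandin E2, had 65.2, 189 and 89 CPM with RGZ and 13.7, 29.7 and 24.2 CPM with the combination, a 4.87-fold decrease (log2 fold change -2.29 ± 0.15, adjusted p = 1.47e-08). *IL1RL1*, the receptor of interleukin-33, had 96.4, 423 and 44.3 CPM with RGZ and 19, 86.7 and 11.1 CPM with the combination. Its level varied widely between experiments, so that the RGZ library of experiment 3 lay below the combination library of experiment 2, and the ratio within experiments was 0.197, 0.205 and 0.252. The log2 fold change was -2.24 ± 0.14 (adjusted p = 8.57e-09), or -2.17 without the RGZ library of experiment 2, and the adjusted p was 0.388 without the block. For *PTGES*, in which that library was also the highest, the log2 fold change was -2.01 without it.

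In the list of cytokines, chemokines and NF-κB targets, 9 of 25 tested genes were lower and 3 higher (48% called, against 11.4% of all tested genes), with a median log2 fold change of -0.15. Without the block 2 and 1 were called. The interleukin-1 genes *IL1B* and *IL1A* fell, with log2 fold changes of -1.76 and -1.46, and so did the chemokine genes *CXCL3* and *CXCL2*, which share much of their sequence, with -1.28 and -1.26. In *IL1B* the RGZ library of experiment 2 was the highest (6.13, 30.7 and 6.29 CPM with RGZ, 1.48, 9.15 and 2.25 CPM with the combination), the groups overlapped, and the log2 fold change was -2.15 without that library. Smaller decreases were those of *IL11* (log2 fold change -0.62), *LIF* (-0.47), *NFKBIZ* (-0.46) and *TRAF3IP2* (-0.42). The chemokine gene *CCL2* went the other way, from 1.86 ± 0.431 to 4.87 ± 0.616 CPM (log2 fold change 1.39 ± 0.23, adjusted p = 6.54e-04), and *MALT1* and *TRAF1* rose by 0.47 and 0.43 on the log2 scale. The call of *TRAF1* was lost in all 9 fits that left out a library or experiment.

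A further large decrease was that of *LYPD3*, a glycolipid-anchored surface protein, with 31.8, 63.1 and 48.9 CPM with RGZ and 6.42, 12.9 and 13.5 CPM with the combination (log2 fold change -2.13 ± 0.12, adjusted p = 3.62e-09). *UBE2QL1* and *C11orf86*, at mean RGZ levels of 7.85 and 4.75 CPM, had log2 fold changes of -2.17 and -3.17. *TFF2*, a secreted trefoil peptide, went from 20.6 ± 2.08 to 4.94 ± 1.11 CPM (log2 fold change -2.06). It was the single call of 3 tested trefoil and mucin genes (33.3%, against 11.4% of all tested genes). Of the 15 largest decreases, 13 were also called without the block, and in 14 the 3 combination libraries did not overlap the 3 RGZ libraries. Such separation was seen in 17.7% of all tested genes, and the choice of large called changes favours it.

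Transcription factors of the C/EBP, KLF and CREB3 families were called more often as lower than as higher. Of 21 tested genes, 10 were lower and 3 higher, 61.9% in all against 11.4% of all tested genes, with a median log2 fold change of -0.28. This list, like the others, was chosen with earlier results of these data known, which can raise its share. Without the block 5 and 1 were called. *CREB3L3*, a factor released from the endoplasmic reticulum membrane, had 11.2, 14.8 and 10.5 CPM with RGZ and 0.618, 1.16 and 2.36 CPM with the combination (log2 fold change -3.11 ± 0.26, adjusted p = 3.57e-07, and -3.83 without the combination library of experiment 3). *KLF4* fell from 47.2 ± 3.16 to 18.1 ± 5.03 CPM (log2 fold change -1.38), *KLF10* fell by 0.77, *KLF13* fell by 0.71, *KLF11* fell by 0.65, *KLF5* fell by 0.49, *KLF6* fell by 0.39 and *KLF3* fell by 0.28, the last lost in 7 of the 9 fits. *CEBPA* and *CEBPB*, regulators of fat cell differentiation, had log2 fold changes of -0.93 and -0.37 (adjusted p = 0.00267 and 0.0174). The KLF family was split, since *KLF15* rose from 1.84 ± 0.112 to 5.06 ± 0.816 CPM (log2 fold change 1.45, adjusted p = 5.73e-04) and *KLF9* by 0.84, while *DDIT3*, a stress-induced C/EBP member, rose by 0.38.

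The receptor itself changed little. *PPARG* had 69.2, 77.6 and 69.5 CPM with RGZ and 81.2, 95.6 and 73.1 CPM with the combination, a log2 fold change of 0.20 ± 0.06 (adjusted p = 0.0483). It was higher with the combination within each experiment, but the groups overlapped. The adjusted p was 0.418 without the block. The call was lost in 8 of the 9 fits that left out a library or an experiment (all but the fit without the combination library of experiment 3), with adjusted p-values up to 0.241. The retinoid receptor gene *RXRG* rose by 1.15 on the log2 scale (adjusted p = 0.00147), from 1.87, 2.06 and 6.6 to 7.29, 2.0 and 14.4 CPM in experiments 1, 2 and 3. It was lower with the combination in experiment 2, the groups overlapped, and the highest adjusted p over those 9 fits was 0.149. The other 4 genes of PPAR and RXR receptors were not called, so that 33.3% of the list was called, against 11.4% of all tested genes. None of the 6 was called without the block. Of 19 tested corepressors and coactivators, 5 were lower and 0 higher (26.3% called, against 11.4% of all tested genes, of which 5.88% lower), with a median log2 fold change of -0.14. Without the block *TBL1X* alone was called. They were *TBL1X* (log2 fold change -0.58), a subunit of the corepressor complex, *PPARGC1B* (-0.54), a coactivator, the corepressor *NCOR1* (-0.33) and the coactivators *NCOA3* (-0.33) and *EP300* (-0.32). Of the 9 fits, *NCOA3* lost its call in 5 and *EP300* in 6. Among other nuclear receptors, 3 of 20 were lower and 1 higher (20% called, against 11.4% of all tested genes, and 2 and 0 without the block). The circadian repressor *NR1D1* fell by 0.97 on the log2 scale, *NR2F1* fell by 0.38 and *ESRRA* fell by 0.37, and the vitamin D receptor gene *VDR* rose by 0.33.

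Adhesion and matrix genes were called in a large share, in both directions. Among 33 tested integrins, collagens and laminins, 15 were lower and 6 higher, which is 63.6% of the list against 11.4% of all genes, although 2 and 0 were called without the block. The list was chosen with earlier results of these data known, which can raise this share. *ITGA2*, a subunit of the collagen receptor α2β1, had 97.2, 141 and 117 CPM with RGZ and 22.7, 43 and 35.7 CPM with the combination, and its log2 fold change was -1.80 ± 0.12 (adjusted p = 4.61e-08). The laminin-binding integrin genes *ITGA3* and *ITGA6* had log2 fold changes of -0.84 and -0.68, and *ITGA1* and *ITGB5* of -0.49 and -0.42. The 3 genes of collagen VI fell together, with log2 fold changes of -1.53 for *COL6A3*, -0.76 for *COL6A1* and -0.55 for *COL6A2*, and the laminin genes *LAMA4* and *LAMA1* had -1.06 and -0.67. Fibronectin (*FN1*, log2 fold change 0.47), the collagen V genes *COL5A1* (0.71) and *COL5A2* (0.22), *COL9A3* (0.58), *ITGA10* (0.42) and *LAMB2* (0.19) rose. *FN1* went from 117, 36.8 and 191 to 148, 59.9 and 257 CPM, higher in every experiment (ratios 1.27, 1.63 and 1.34) with overlapping groups. The calls of *COL5A2*, *ITGA10* and *LAMB2* were lost in 7, 6 and 8 of the 9 fits.

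Matrix proteases and their inhibitors gave 4 decreases and 7 increases among 23 tested genes (47.8% called, against 11.4% of all tested genes, 5.88% lower and 5.55% higher). *MMP19* fell from 20.8 ± 1.03 to 5.39 ± 2.81 CPM (log2 fold change -1.95, adjusted p = 5.40e-06), and the inhibitor genes *TIMP3* and *SERPINE2* and the urokinase receptor gene *PLAUR* fell with log2 fold changes of -0.59, -0.56 and -0.50. *MMP3* (log2 fold change 1.45), *MMP8* (1.12), *MMP15* (0.74), *MMP17* (0.67) and *MMP2* (0.42) rose. Actin regulators were divided as well, with 6 lower and 5 higher of 17 (64.7% called, in a list also chosen with earlier results known). The decreases included the GTPases *RHOU* (log2 fold change -1.46) and *RHOB* (-0.91), the coronin *CORO2B* (-1.26), *DLC1* (-0.95) and *COTL1* (-0.57), and the log2 fold changes of the increases, *CORO1B*, *CNN2*, *CNN3*, *MYL9* and *TPM1*, were between 0.32 and 0.44. Among guidance cues and receptors of the semaphorin, ephrin and Slit families 29% were called, and 7 of 31 were lower, led by *SEMA3F* (log2 fold change -0.79), *SEMA3D* (-0.73) and *SEMA7A* (-0.60), and 2 were higher, *EPHA3* (0.62) and *PLXNB1* (0.32). Without the block 1 protease gene, 3 actin regulators and 0 guidance genes were called, all lower. *MYL9* lost its call in 6 of the 9 fits.

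Fewer increases than decreases passed 4-fold, 12 against 22, while the median sizes were alike. *LOXL4*, a lysyl oxidase-like enzyme that crosslinks matrix, had the smallest p-value of them, with 76.9, 103 and 117 CPM with RGZ and 174, 245 and 284 CPM with the combination. All combination libraries were higher, and the ratios within experiments were close to one another (2.26, 2.38 and 2.42). Its log2 fold change was 1.24 ± 0.06 (adjusted p = 5.91e-10). *EFEMP1*, the matrix protein fibulin-3, had 19.2, 15.6 and 19.7 CPM and 45.6, 45.3 and 35.7 CPM, also without overlap (log2 fold change 1.21, adjusted p = 9.59e-07, and 9.11e-04 without the block). *SERPINA3*, the protease inhibitor antichymotrypsin, had 22.1, 28.7 and 51.6 CPM with RGZ and 71.6, 59.7 and 160.3 CPM with the combination. The values of experiment 3 were the highest in both conditions, which left the groups without overlap but with a wide spread inside each (log2 fold change 1.48, adjusted p = 2.89e-07, and 0.256 without the block). *S100B*, a calcium-binding protein of melanocytes and glia, differed more between experiments. It had 10.2, 6.62 and 21.8 CPM with RGZ and 34.7, 16.3 and 45.1 CPM with the combination. Experiment 2 was low and experiment 3 high in both conditions and the groups overlapped, whereas the ratio within experiments was 3.41, 2.46 and 2.07. For *S100B* the log2 fold change was 1.34 (adjusted p = 1.61e-06, and 0.344 without the block).

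**Figure D3:**
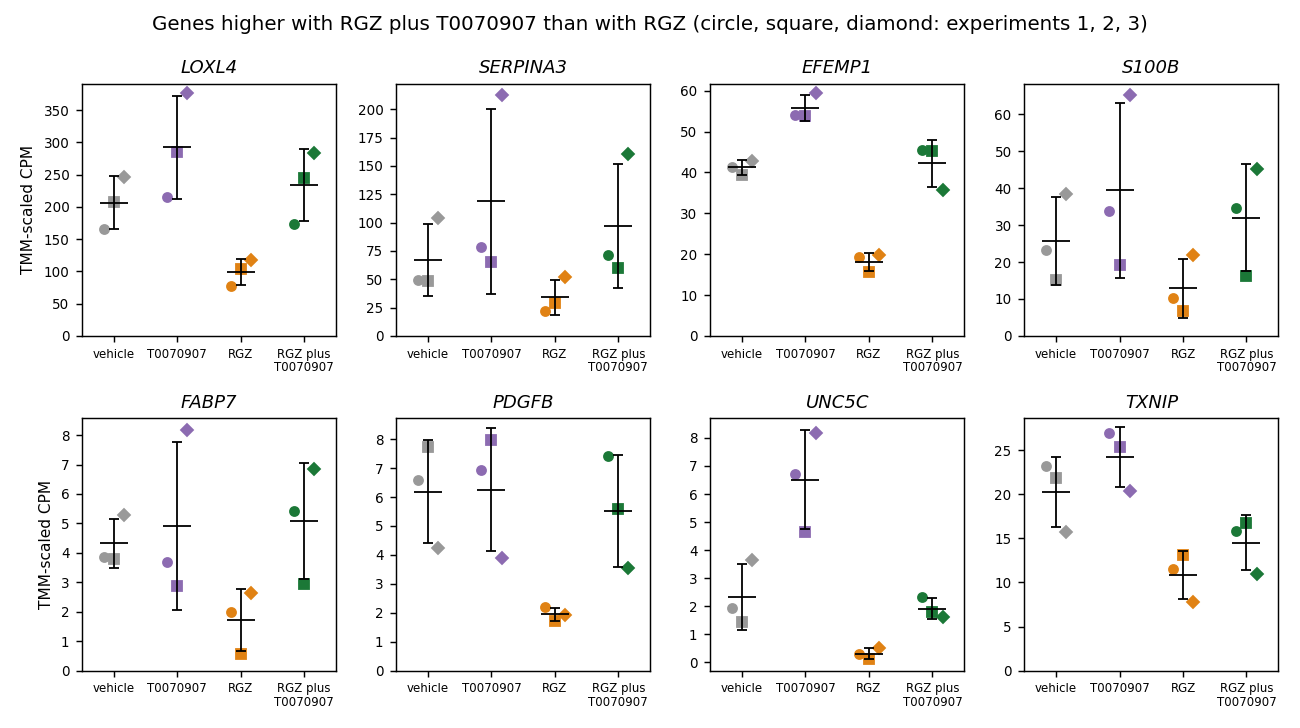
TMM-scaled CPM of 8 genes called higher, in all 12 libraries by condition, on linear axes; circles, squares and diamonds are experiments 1, 2 and 3, and the bar with caps is the mean ± SD (n = 3). Each symbol lies higher with the combination than with RGZ; in *S100B* and *TXNIP* the experiments differ so much that the groups overlap, and in *LOXL4* and *UNC5C* they do not.

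The 15 largest increases were in genes of low level, between 0.311 CPM (*UNC5C*) and 2.25 CPM (*MGP*) on average with RGZ, and 2 of them were called without the block, against 13 of the 15 largest decreases. *UNC5C*, a receptor of netrins, had 3, 1 and 5 counts with RGZ and 19, 17 and 15 counts with the combination in experiments 1, 2 and 3, a log2 fold change of 2.55 ± 0.45 (adjusted p = 8.93e-04). *BMX*, a tyrosine kinase of the Tec family, had 4, 3 and 4 and 18, 25 and 13 counts (log2 fold change 2.36, adjusted p = 6.53e-04). Both passed without the block. The others were *PADI3*, a deiminase of arginine (log2 fold change 2.37), *PLEKHS1* (2.10), *GFRA1*, a receptor of GDNF (1.89), *HSD17B3* (1.89), *LYPD6B* (1.86), *STAC2* (1.86), *KMO*, of the kynurenine pathway (1.80), *ROPN1* (1.78), *LRP1B* (1.77), *LRRC7* (1.74), *OLFML3* (1.72), *MGP*, an inhibitor of matrix calcification (1.70), and *CERS4*, a ceramide synthase (1.66). *ROPN1* has a closely similar neighbour, *ROPN1B*, so that reads may be shared between them, and *KMO* overlaps *OPN3*. In 9 of the 15 the groups did not overlap, against 17.7% of all tested genes. The choice of large called changes of 1 direction in every experiment favours such separation. When a library or an experiment was left out, the call was lost in 1 of 9 fits for *GFRA1* (without experiment 1), *KMO* (experiment 1) and *PADI3* (experiment 2), in 2 for *STAC2* (experiments 1 and 2), and in 3 for *LRP1B* (RGZ libraries of experiments 1 and 3, experiment 3) and *LRRC7* (RGZ library of experiment 1, experiments 1 and 3). The highest adjusted p-values were 0.0821 for *GFRA1*, 0.0738 for *KMO*, 0.0621 for *PADI3*, 0.0619 for *STAC2*, 0.145 for *LRP1B* and 0.12 for *LRRC7*. Single libraries also moved the log2 fold change, to 2.51 for *HSD17B3* without the combination library of experiment 3, to 1.61 for *PADI3* without that of experiment 2, and to 2.76 for *LRP1B* and 2.50 for *LRRC7* without the RGZ library of experiment 2. Without experiment 3 it was 3.19 for *UNC5C* and 2.64 for *STAC2*.

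In the list of netrins, UNC5 receptors, neogenin and RGM genes, 2 of 7 tested members rose, *UNC5C* and the repulsive guidance gene *RGMA* (2, 3 and 6 counts with RGZ, 14, 12 and 14 with the combination, log2 fold change 1.91), while *NTN4* fell by 1.22. Without the block *UNC5C* alone of these was called. With it, 42.9% of the list was called, against 11.4% of all tested genes. Among PDGF, VEGF and FGF genes 5 of 17 were higher, beside 5.55% of all tested genes, and 1 lower (*FGFR1*, log2 fold change -0.32), with a median log2 fold change of 0.33. *PDGFB*, a chain of platelet-derived growth factor, had 2.18, 1.71 and 1.93 CPM with RGZ and 7.41, 5.57 and 3.54 CPM with the combination (log2 fold change 1.47, adjusted p = 3.45e-04, and 0.0752 without the block). *FGF1*, *FLT1*, *FGFR3* and *FGF2* rose by 1.14, 0.86, 0.64 and 0.40 on the log2 scale. Of the BCL2 family, the genes of the cell death proteins *BMF* (log2 fold change 1.29), *BBC3* (0.59) and *BAD* (0.56) rose and that of the survival protein *MCL1* fell (-0.46), while 10 of 14 were not called (28.6% called, against 11.4% of all tested genes). Among cell cycle regulators of G1, 4 of 12 rose and 0 fell (33.3% called). They were the inhibitors *CDKN1C* (log2 fold change 0.70) and *CDKN2C* (0.37) and the kinases *CDK6* (0.22) and *CDK4* (0.18). Without the block 0 of the PDGF, VEGF and FGF genes and 0 of the G1 regulators were called, and of the BCL2 family *MCL1* alone. Of the 9 fits that left out a library or experiment, the call was lost in 7 for *CDK4*, 6 for *CDK6*, 6 for *BBC3* and 5 for *BMF*.

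Of 9 tested genes of the melanocyte lineage 3 rose and 0 fell (33.3% called, against 11.4% of all tested genes, of which 5.55% higher), with a median log2 fold change of 0.27. Beside *S100B* these were *MITF*, the lineage's master regulator (40.9, 43.8 and 24.4 CPM with RGZ, 41.9, 57.8 and 31.4 CPM with the combination, log2 fold change 0.27, adjusted p = 0.0377) and *S100A1* (log2 fold change 0.44). None of the 3 was called without the block (0 of 9), and *MITF* lost its call in 6 of the 9 fits (adjusted p up to 0.335) and *S100A1* in 4. *SOX10* was not called (log2 fold change 0.14, adjusted p = 0.157). The list of dedifferentiated melanoma genes held 4 increases and 2 decreases among 15, with *NGFR*, the neural crest nerve growth factor receptor, going from 92.9 ± 60.7 to 169.6 ± 82.8 CPM (log2 fold change 0.94, adjusted p = 9.61e-04), *TWIST1* at 0.77, *WNT5A* at 0.42 and *TGFBI* at 0.30, and *SOX2* and *NT5E* at -0.32 and -0.30. With the block, 40% of this list was called, against 11.4% of all tested genes. None of these 15 genes was called without the block, and *SOX2* and *NT5E* lost their call in 8 and 6 of the 9 fits. In the list of MAPK output and immediate early genes, 9 of 26 were lower and 2 higher (42.3% called, beside 5.88% lower and 5.55% higher among all tested genes), with a median log2 fold change of -0.18. Without the block 2 and 0 were called. *JUN* fell from 94.5 ± 11.8 to 41.9 ± 2.8 CPM (log2 fold change -1.17, adjusted p = 4.88e-06), *MYC* fell by 0.68, *DUSP1* fell by 0.63 and *FOSL2* fell by 0.61, whereas *SPRY1* rose by 0.85 and *IER3* by 0.29.

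*TXNIP*, which encodes the thioredoxin-interacting protein, had 11.5, 13.1 and 7.82 CPM with RGZ and 15.8, 16.7 and 10.9 CPM with the combination in experiments 1, 2 and 3. It was higher with the combination within each experiment, at ratios of 1.37, 1.27 and 1.4, while the groups overlapped. The log2 fold change was 0.43 ± 0.11 (adjusted p = 0.0196). The adjusted p was 0.455 without the block, and the call was lost in 5 of the 9 fits that left out a library or an experiment, namely without the RGZ library of experiment 1 or 3, the combination library of experiment 2, or experiment 1 or 3 (adjusted p up to 0.158). The means were 20.3 ± 3.95 CPM with vehicle and 24.2 ± 3.39 CPM with T0070907 alone, above the 14.5 ± 3.11 CPM of the combination (SD, n = 3 each). Between combination and vehicle *TXNIP* was not called (adjusted p = 0.0983, same fit). Among 12 tested alpha-arrestins and thioredoxin genes, *TXNRD2* was the other increase (log2 fold change 0.47), so that 16.7% were called, against 11.4% of all tested genes, and none without the block. Of 2 reference genes, *YWHAZ* had a log2 fold change of -0.05 ± 0.05 (adjusted p = 0.600) and *B2M* one of -0.02 ± 0.06 (adjusted p = 0.875), and neither was called.

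**Figure D4:**
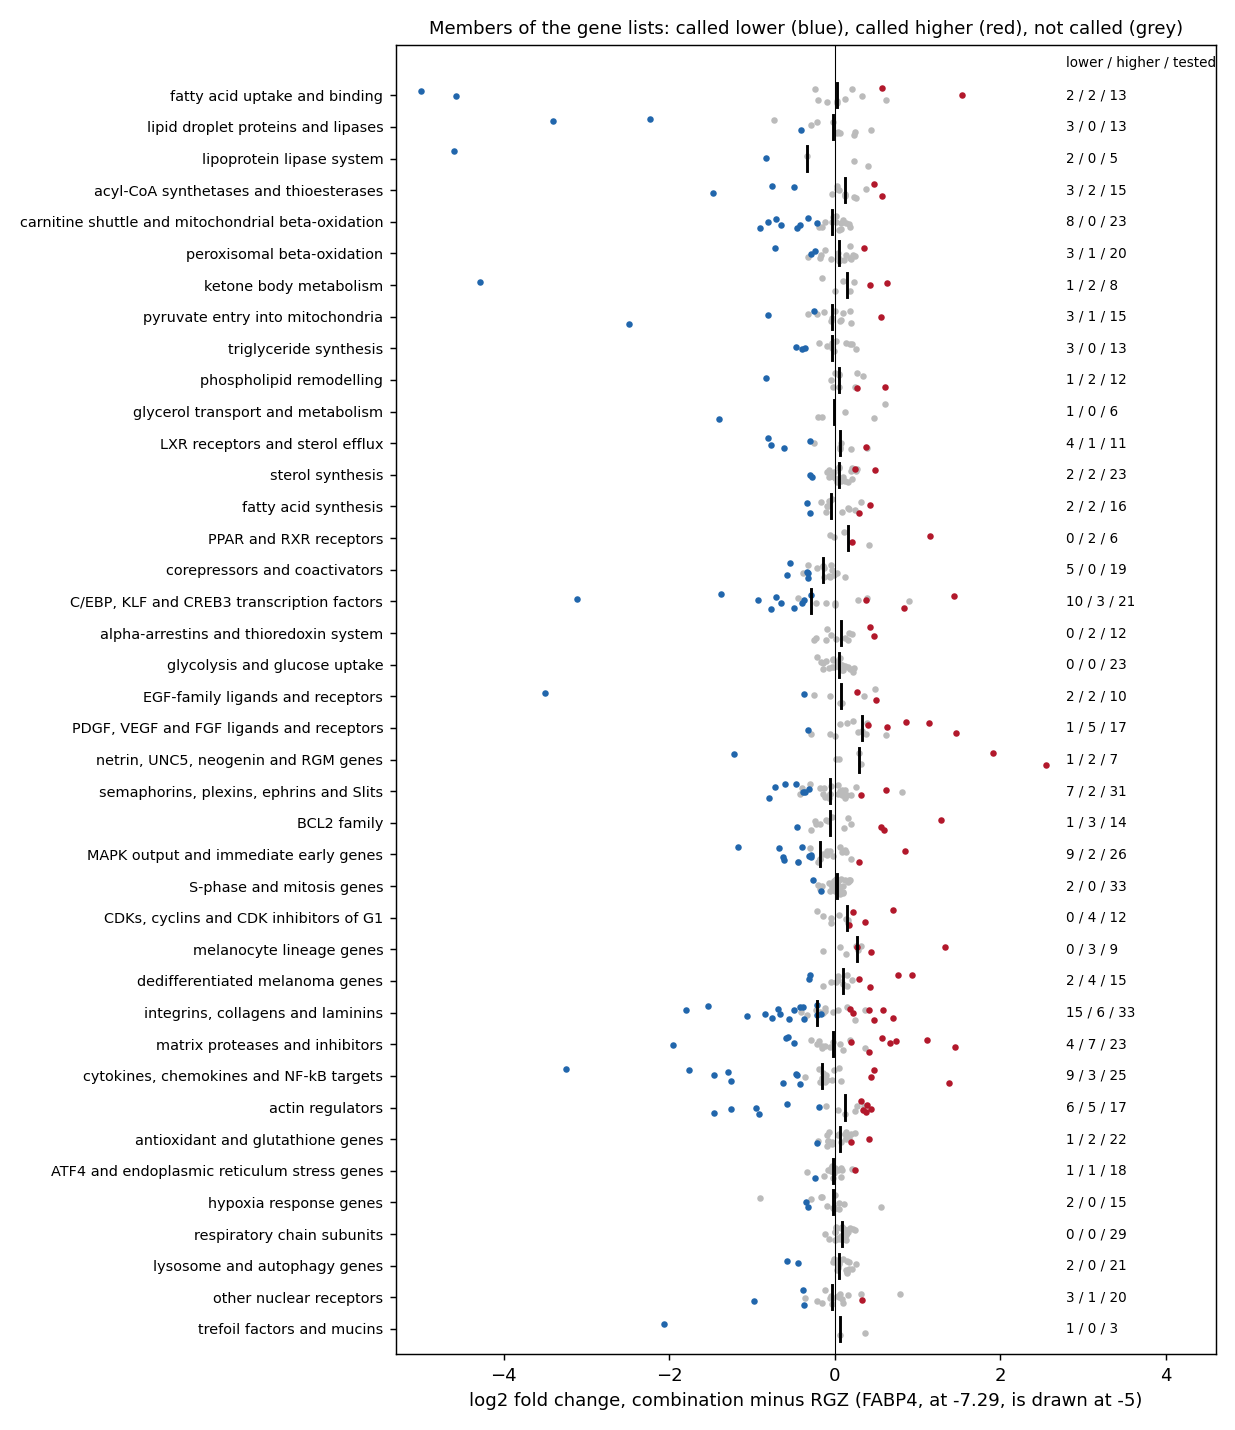
Each point is a tested member of 1 of the 40 gene lists, at its log2 fold change (combination minus RGZ); blue and red points were called lower and higher, grey points were not called, and the black bar is the list's median. The numbers at the right count members called lower, called higher and tested; glycolysis and the respiratory chain have no call, and *FABP4* is drawn at the left edge.

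Beside the 11.4% called among all tested genes, 6.06% were called in the list of S phase and mitosis, 9.52% in lysosome and autophagy, 11.1% in ATF4 and endoplasmic reticulum stress, 13.3% in hypoxia response and 13.6% among antioxidant genes. None of the 23 tested genes of glycolysis and glucose uptake and none of the 29 subunits of the respiratory chain was called, by edgeR with the block or without it, and their median log2 fold changes were 0.05 and 0.09. At an unadjusted p under 0.05 there were 7 and 5 genes in these lists. DESeq2 with the block called 0 in each, and limma-voom with the block called 1 gene of glycolysis and glucose uptake higher and 0 of the respiratory chain. The median of the respiratory chain list ranged from -0.003 to 0.185 over the alternative fits. Of 33 genes of S phase and mitosis, 2 were lower, *E2F1* (log2 fold change -0.26) and *RRM2* (-0.17), and 0 higher. The list of antioxidant and glutathione genes gave 1 decrease (*GSR*, log2 fold change -0.21) and 2 increases (*NQO1*, 0.41, and *TKT*, 0.20) among 22. ATF4 and endoplasmic reticulum stress genes gave 1 decrease (*XBP1*, log2 fold change -0.24) and 1 increase (*PHGDH*, 0.25) among 18, and hypoxia response genes 2 decreases (*STC2*, -0.35, and *P4HA2*, -0.32) among 15. Of 21 lysosome and autophagy genes, the autophagy receptor *SQSTM1* fell by 0.58 on the log2 scale and the protease gene *CTSL* fell by 0.44. No member of these 5 lists was called without the block. The calls of *E2F1*, *RRM2*, *GSR*, *TKT*, *XBP1* and *P4HA2* were lost in 7, 6, 8, 6, 6 and 6 of the 9 fits.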

How the data were processed

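RNA of A375 cells was taken from 3 independent experiments with 4 conditions each, and TruSeq cDNA libraries were sequenced on an Illumina machine. The authors deposited raw read counts per NCBI gene number for all 12 libraries, not normalized. Their processing notes name the genome build hg19, and the aligner, the counter and its strand setting are not given in the sources used here. Of 23705 gene numbers, 23538 were matched to RefSeq symbols (GRCh38.p14).

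Counts were analysed in edgeR 4.0.16 (R 4.3.3). Genes of too few counts were removed with filterByExpr, which left 13522, libraries were scaled by TMM, and a quasi-likelihood model of condition plus experiment was fitted to all 12 libraries, so that the 4 conditions shared the estimate of the spread. Genes with a Benjamini-Hochberg adjusted p under 0.05 were called. Standard errors were obtained as the log2 fold change divided by the root of F, and are approximate. The pairing comes from the labels, which number the experiments. Deviations from the condition means correlated between the RGZ and combination libraries of the same experiment, at 0.194, 0.656 and 0.688. The code was tested on simulated data.

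Genes were named by a fixed rule, namely the 15 largest decreases and 15 largest increases among called genes that averaged 1 CPM or more over the 6 libraries and moved the same way in every experiment, the 5 smallest p-values in each direction, called members of 40 gene lists, and *TXNIP*, *CPT1A*, *FABP4*, *PPARG*, *YWHAZ* and *B2M*, which the study also measured by other means or used as references. *RMRP*, *RPPH1* and *RNA45SN5*, and the genes of the closing observations, were named after their values were seen. Some genes that the rule names are not reported here. The members and lists were chosen with earlier results of these data known. Counting intervals and the floor of 3 counts cover counting error only. The alternatives were DESeq2 1.42.0, limma-voom (limma 3.58.1), other size factors and filters, thinned counts, a stricter threshold, only the 6 libraries compared, no block, and leaving out each library or experiment.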

Additional observations from a re-analysis of the deposited data

How the results depend on the processing

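Most calls were lost without the experiment as a block. Without the replicate block 167 genes were called, 125 lower and 42 higher, against 1545, 795 and 750 with it. With only the 6 libraries compared there were 822 calls with the block (468 lower, 354 higher) and 41 without it (37 and 4). DESeq2 with the block called 1050 genes (583 and 467) and without it 314 (231 and 83, 73.6% of them lower). At an adjusted p under 0.01 there were 776 (444 and 332). Leaving out 1 library or experiment gave 513 to 2575 calls (311 to 1285 lower, 202 to 1290 higher). The count moved by over 1.5 times without the RGZ library of experiment 1 (892), 2 (1020) or 3 (856), the combination library of experiment 2 (2575), experiment 1 (949) or experiment 3 (513). With other size factors, limma-voom, no filter, a filter of 10 counts or thinned counts, between 1398 and 1859 genes were called. *RPPH1* changed sign without the combination library of experiment 3 (-0.33) and without experiment 3 (-0.38), over a range of -0.38 to 4.75 when a library or experiment was left out. Of 210 genes named, the other 209 showed no reversal of a called direction in these fits. The medians of 16 of the 40 lists changed sign in at least 1 fit, among them those of glycolysis and glucose uptake (-0.03 to 0.06). At 8426908 to 10096418 counts per library, genes under the filter, such as the pigment genes, could not be compared.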

Other observations

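Several genes outside the lists, chosen here after their values were seen, were highest in the RGZ library of experiment 2 and fell with the combination. *RBP4*, the carrier of retinol in blood, had 3.53, 12.1 and 3.25 CPM with RGZ in experiments 1, 2 and 3 and 2.47, 2.0 and 1.07 CPM with the combination. *OASL*, a gene of the interferon response, had 2.18, 12.9 and 1.12 CPM and 0.618, 3.68 and 0.429 CPM. *PDE2A*, a cyclic nucleotide phosphodiesterase, had 4.89, 23.4 and 7.71 CPM and 2.59, 9.57 and 2.36 CPM. *IL18R1*, a receptor subunit of interleukin-18, had 5.2, 25 and 2.33 CPM and 1.73, 11 and 1.61 CPM, and *CDCP1*, a transmembrane substrate of Src kinases, had 11.7, 26.7 and 12.4 CPM and 5.19, 12.4 and 3.43 CPM. Experiment 2 was also the highest of the combination libraries in all of these but *RBP4*, and in all but *RBP4* the groups overlapped. Their log2 fold changes were -1.74, -1.75, -1.32, -1.13 and -1.29 with the block (adjusted p = 5.40e-04, 4.78e-05, 1.47e-04, 0.00105 and 2.04e-05). Without the RGZ library of experiment 2 they were -1.29, -1.49, -1.46, -0.76 and -1.29, and *IL18R1* was no longer called (adjusted p = 0.121). The log2 fold change of *RBP4* was -1.06 without the combination library of experiment 2. None of the 5 was called without the block. *LIPE*, which encodes hormone-sensitive lipase, was high in the same library (3.85, 10.8 and 2.94 CPM with RGZ, 4.08, 3.47 and 2.79 CPM with the combination) and was not called (log2 fold change -0.73, adjusted p = 0.127). Without that library its log2 fold change was -0.04.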
